A study of Mus musculus with 40 samples.

Results

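RNA was sequenced from 4T1 cells, an established mouse mammary carcinoma line, grown without T cells on tissue culture plastic coated with fibronectin or with vitronectin. The 9 libraries were those whose labels gave 1 of these 2 substrates and 4T1 cells alone, out of 40 libraries in the series. Fibronectin had 5 libraries, from experiments 1 to 5, and vitronectin had 4, from experiments 2 to 5, so that 4 experiments held both coats. Each coat was applied at 250 µg/ml, cells were seeded at 10 k per cm2, and after a night every well received interleukin 2 at 30 U/mL for another 24 h. Cells floating in the medium were pelleted and joined with the trypsinised cells, so detached cells are part of every library. The cells are 1 carcinoma line, cultured here without stroma. They were maintained in medium with serum, which itself carries both proteins. Uncoated plastic (5 libraries) served as the control, and the same 2 coats with C57Bl6 spleen T cells at 80 k per cm2 (4 libraries on fibronectin, 3 on vitronectin) gave the same comparison in other wells. The 8 libraries on collagens I and IV entered the estimate of the spread. They also entered the choice of genes tested and a correction for transcript length and GC content, and were not compared themselves.

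Fibronectin and vitronectin are adhesive glycoproteins that carry the tripeptide Arg-Gly-Asp (RGD), which cells grip through integrins, heterodimeric receptors that connect the matrix to the actin cytoskeleton. Integrins with the subunit encoded by Itgav bind both proteins, whereas the pair encoded by Itga5 and Itgb1 is the classical fibronectin receptor. Fibronectin is assembled into fibrils and also binds heparan sulphate proteoglycans such as the syndecans. Vitronectin, abundant in plasma, binds the urokinase receptor (Plaur), and so connects adhesion to pericellular proteolysis.

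Values are given per M, meaning reads per scaled mega-read of library. Depth recovered from the values was 31.65 to 45.5 M reads on fibronectin and 24.76 to 38.44 M on vitronectin, and a count of 0 allows 0.0682 to 0.123 per M, which covers counting error only. Differences are log2 differences of value + 1, fibronectin minus vitronectin, ± standard error, and a pseudocount of 1 shrinks those of genes near 1 per M. A gene said to rise or fall was higher or lower on fibronectin than on vitronectin, whichever coat differed from uncoated plastic. Of the carcinoma markers 6 of 6 were detected, with a summed level of 1911 to 2515 per M on fibronectin and 2126 to 2491 on vitronectin. Of 9 T cell markers only Lck reached 1 per M, and Cd3g was at 0 in all 4 vitronectin libraries. Experiments differed more than coats did. Over the 8 paired libraries, 73.2% of the sum of squares lay between experiments and 10.9% between coats.

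Of 13664 genes tested, 550 (4.03%) passed at an adjusted p under 0.05 by limma with the experiment as a block. They were 218 genes higher on fibronectin (1.6%) and 332 lower (2.43%). Differences were small: the median size among the 550 was 0.26 on the log2 scale, 33 reached 0.5 and 4 reached 1. All 4 pairs moved the same way in 524 of the 550, and in 3167 of all genes tested. The 550 were called from these same libraries, so the agreement of their pairs is partly built in. The values on the 2 coats did not overlap for 130 of the 550, and for 334 of all genes tested (2.44%). The genes nearest the threshold had adjusted p of 0.04998 and 0.05003. Without the block a single gene, Atp2c2, passed (limma adjusted p = 0.0473), so every other call is a difference seen within experiments. The number called varied from 1 to 857 over the fits tried. Without fibronectin replicate 4 or 5 it was 170 and 274, without vitronectin replicate 2, 4 or 5 it was 830, 132 and 252, and 109 of the 550 passed whichever 1 of the 9 libraries was left out. A set of 35 genes (0.256% of those tested), 11 higher and 24 lower, passed in 17 fits that kept the block: leaving out each library or experiment, the 8 paired libraries alone, edgeR on recovered reads, and a correction for transcript length and GC content. The blocked fit over all 40 libraries, which called 29 genes in all, was not among the 17. These 35 carry most of the account that follows.

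**Figure D1:**
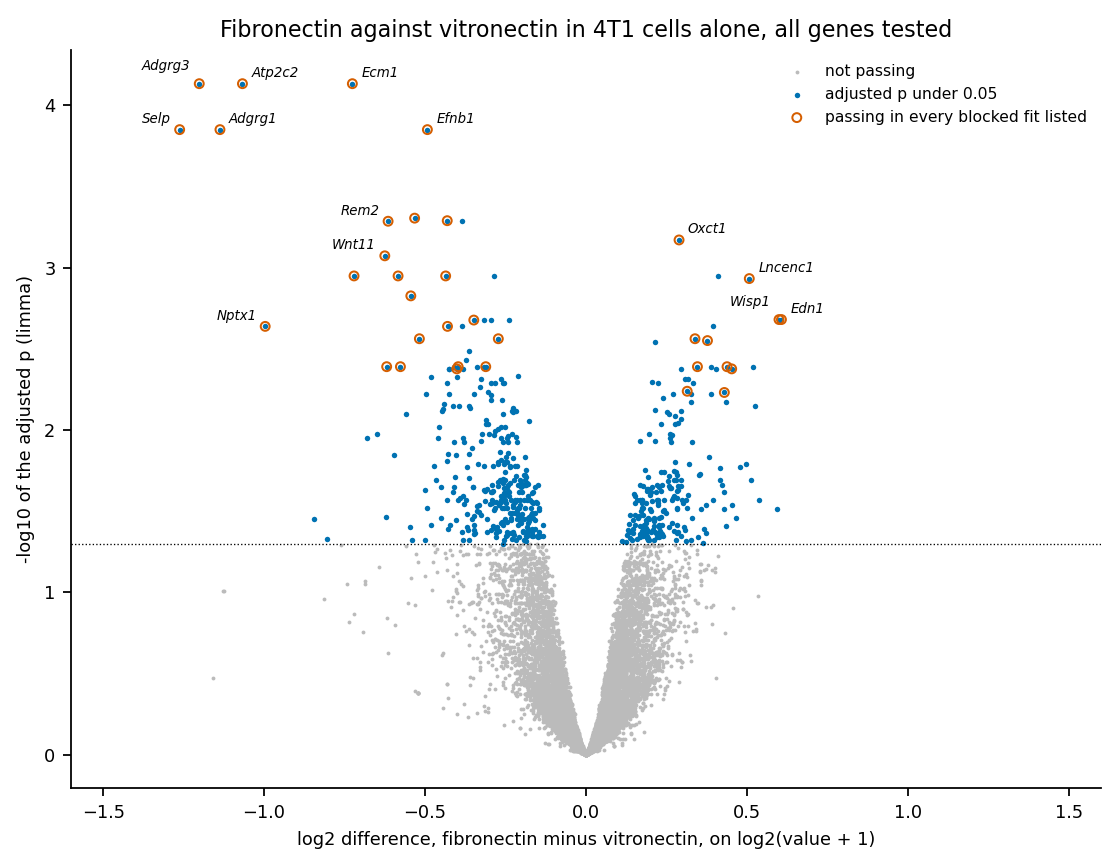
Log2 difference (x axis, fibronectin minus vitronectin) and −log10 of the limma adjusted p (y axis) for each of the 13664 genes tested; blue points passed and orange rings mark the 35 genes that passed in every blocked fit listed. The 4 differences beyond 1 on the log2 scale that passed are all lower on fibronectin, and the largest higher one is that of Edn1 at 0.61.

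The 3 largest differences that passed were those of Selp, Adgrg3 and Adgrg1, all lower on fibronectin. Selp (chromosome 1, 164115264 to 164150026 in GRCm38) encodes P-selectin, an adhesion lectin otherwise known from platelets and endothelium. It had 1.86, 3.23, 1.41, 1.10 and 0.640 per M on fibronectin in experiments 1 to 5 and 6.12, 5.04, 5.83 and 3.69 on vitronectin in experiments 2 to 5. Every vitronectin library lay above every fibronectin library. The difference was −1.26 ± 0.15 (limma adjusted p = 0.000141), and markers of endothelium and platelets summed to only 0.719 to 1.04 per M on fibronectin and 0.647 to 1.34 on vitronectin. Adgrg3 and Adgrg1, receptors of the adhesion G protein-coupled family that lie next to each other on chromosome 8 (chromosome 8, 95017692 to 95045250 and chromosome 8, 94974751 to 95014217), shared the pattern. Adgrg3 had 28.4, 18.8, 20.9, 11.6 and 13.7 per M on fibronectin and 45.4, 43.3, 35.8 and 34.5 on vitronectin. Adgrg1 had 7.75, 6.16, 5.79, 4.70 and 2.96 and 13.7, 13.2, 11.8 and 9.90. Neither gene overlapped between the coats, and the differences were −1.20 ± 0.13 (limma adjusted p = 7.35e-05) and −1.14 ± 0.14 (0.000141).

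Next in size came Atp2c2, a calcium and manganese pump of the secretory pathway, with 4.71, 3.26, 4.05, 2.601 and 3.41 per M on fibronectin and 8.36, 8.60, 7.09 and 8.68 on vitronectin. Its groups were apart and its difference was −1.07 ± 0.12 (limma adjusted p = 7.35e-05). Nptx1, a secreted pentraxin, had 36.5, 21.9, 38.2, 31.0 and 38.5 per M on fibronectin and 36.6, 63.7, 80.7 and 85.0 on vitronectin. Here the vitronectin library of experiment 2 lay within the fibronectin range, while inside every experiment fibronectin was lower (−0.997 ± 0.16, limma adjusted p = 0.0023). Ecm1, a secreted matrix glycoprotein, had 70.3, 84.5, 63.7, 46.5 and 48.6 per M on fibronectin and 124, 102, 91.2 and 90.3 on vitronectin, again without overlap (−0.73 ± 0.08, 7.35e-05). Lgr6, a receptor for R-spondins, had 20.2, 17.4, 20.6, 21.8 and 25.5 per M on fibronectin and 28.6, 29.1, 32.5 and 44.8 on vitronectin, and Wnt11, a WNT ligand, 1.43, 2.84, 1.41, 1.32 and 0.293 and 6.04, 2.38, 2.25 and 0.904. Lgr6 did not overlap, and Wnt11 overlapped across experiments. Both fell on fibronectin in 4 of 4 experiments, by 0.62 and 0.62 on the log2 scale. Igfbp4, a secreted binder of insulin-like growth factors, had 438, 410.1, 474, 466 and 456 per M on fibronectin and 514, 565, 661 and 694 on vitronectin, without overlap (−0.44 ± 0.07, 0.00112). Rem2, a small GTPase of the RGK family, fell as well (−0.61 ± 0.09, 0.000517), as did Man1c1, a mannosidase of the Golgi (−0.65 ± 0.14, 0.0106, and 0.0681 without vitronectin replicate 4).

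Genes that were higher on fibronectin showed smaller differences. Edn1, the precursor of the peptide hormone endothelin, had 7.12, 19.3, 12.7, 11.4 and 8.96 per M on fibronectin and 13.8, 8.07, 6.90 and 4.518 on vitronectin. Levels of the 2 coats overlapped across experiments, with experiment 2 high on both, but in each of the 4 pairs fibronectin was higher (0.61 ± 0.10, limma adjusted p = 0.00209). Wisp1, a secreted matricellular protein of the CCN family, had 26.7, 47.4, 38.2, 51.3 and 32.4 per M on fibronectin and 36.1, 29.7, 27.0 and 17.2 on vitronectin (0.60 ± 0.10, 0.00209). Tgm2, a transglutaminase that cross-links matrix proteins and binds fibronectin, had 28.0, 49.7, 26.8, 60.5 and 38.7 and 35.8, 19.6, 38.3 and 30.8 (0.45 ± 0.08, 0.0042). Pmp22, a membrane protein of peripheral myelin that epithelia also express, rose in 4 of 4 pairs (0.44 ± 0.08, 0.00407). Lncenc1, a long noncoding RNA, was the only 1 of the 11 whose groups did not overlap, with 16.6, 17.3, 16.1, 19.5 and 15.4 per M on fibronectin and 12.5, 11.3, 12.4 and 11.6 on vitronectin (0.51 ± 0.08, 0.00117). The rest of the 11 were Hacd4 (0.43), Col4a5 (0.38), Ablim1 (0.35), Nuak2 (0.34), Plk2 (0.31) and Oxct1 (0.29). Mfap3l, a membrane glycoprotein gene, rose too (0.52 ± 0.09, 0.00407), a call that ended without experiment 4 on both coats (limma adjusted p = 0.0747). Other genes that rose were Scn3a, a sodium channel gene (0.59 ± 0.15), Fgfbp1, which carries fibroblast growth factors (0.51 ± 0.12), Arg1, arginase (0.44 ± 0.12), and Samd5 (0.45 ± 0.11). The calls of these 4 ended without fibronectin replicate 4 or vitronectin replicate 4, with adjusted p up to 0.100, 0.0872, 0.155 and 0.127. Vitronectin replicate 5 also ended those of Scn3a (0.131), Arg1 and Samd5, vitronectin replicate 3 those of Fgfbp1 and Arg1, fibronectin replicate 5 those of Scn3a and Samd5, fibronectin replicate 3 those of Arg1 and Samd5, and fibronectin replicate 1 that of Arg1.

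**Figure D2:**
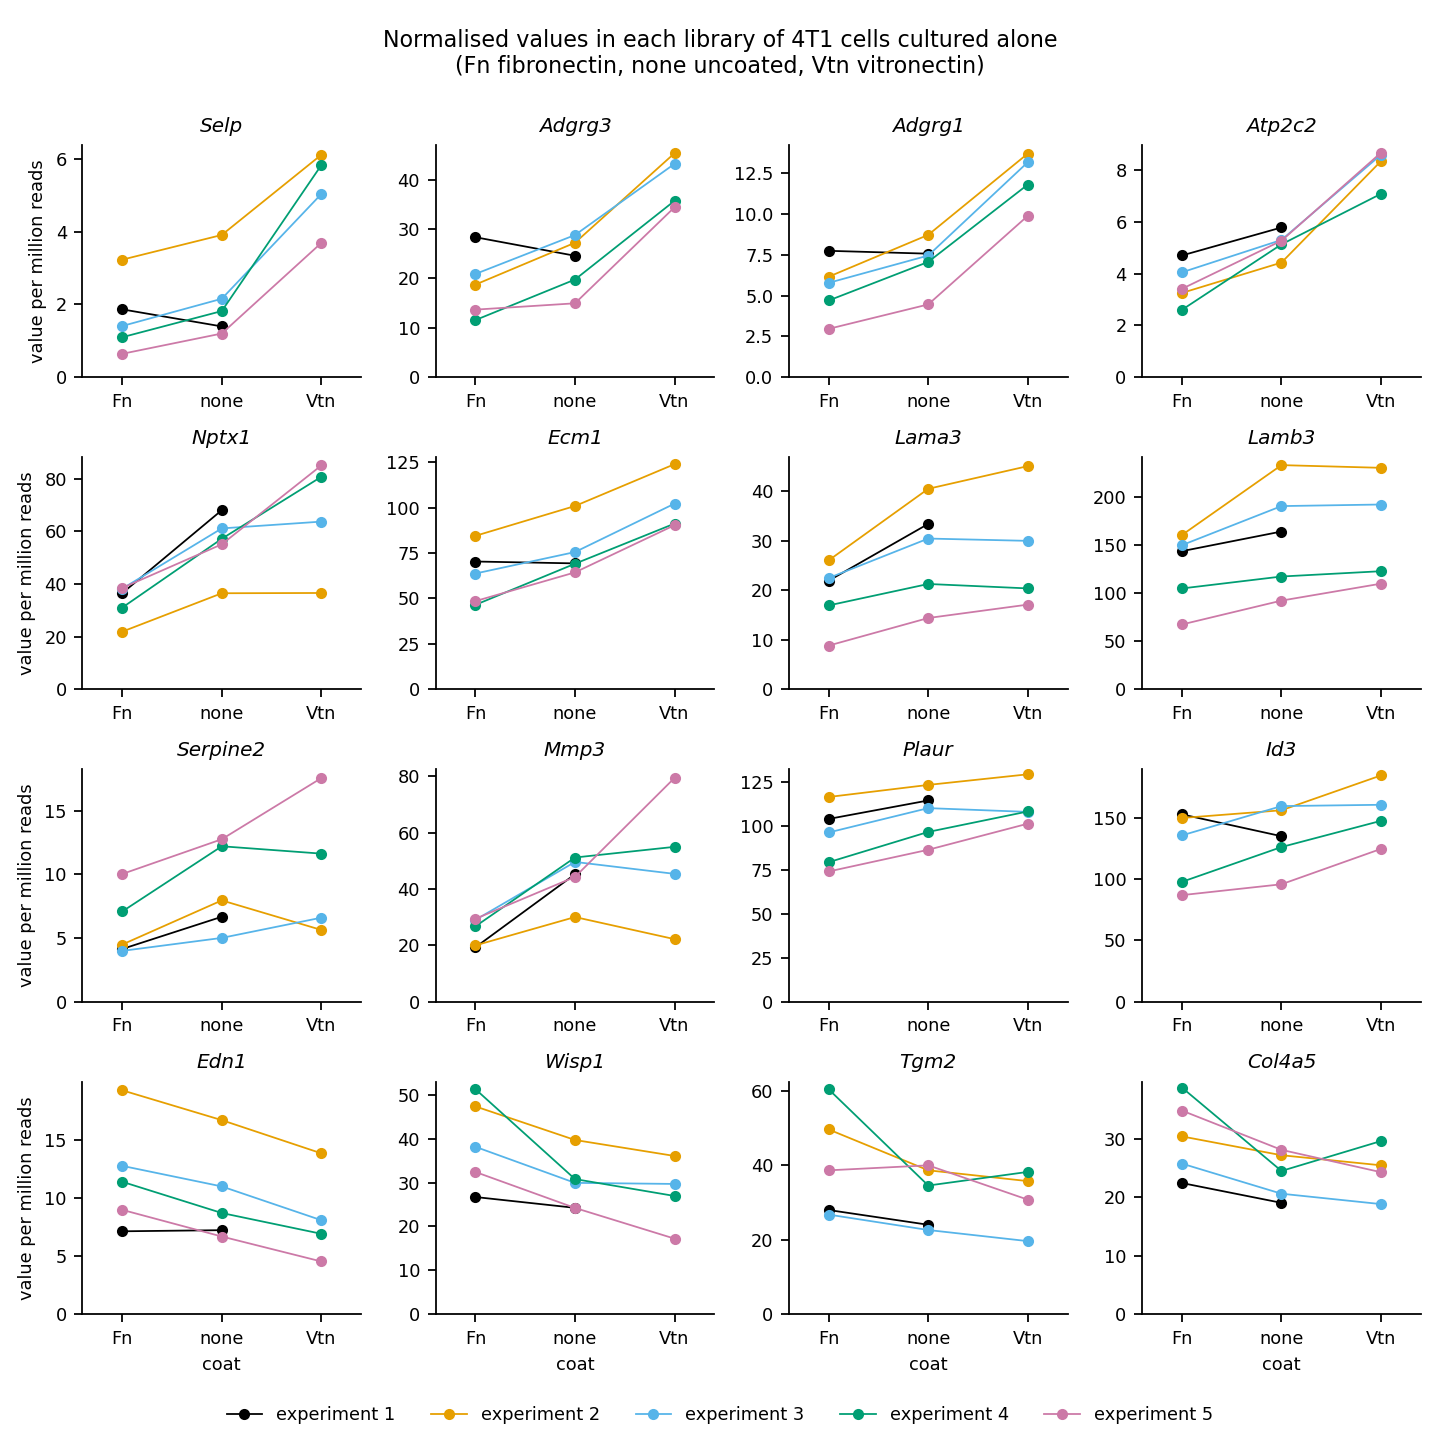
Normalised value per M reads (y axis, from 0) of 16 genes in each library of 4T1 cells alone on fibronectin, uncoated plastic and vitronectin (x axis), with lines joining libraries of 1 experiment. In the first 12 panels each of the 4 paired lines ends higher on vitronectin than on fibronectin, and in the last 4 panels lower; experiment 1 has no vitronectin library.

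With all libraries in the fit, no transcript of an integrin that binds the RGD motif passed the test between the coats. Of 9 genes on this list 6 reached the expression filter and 0 of 6 passed, with a median difference of −0.05 beside 0.01 over all genes tested. Itgb1, the common beta subunit, had 1441, 1331, 1263, 1204 and 1221 per M on fibronectin and 1383, 1377, 1215 and 1241 on vitronectin (−0.06 ± 0.04, limma adjusted p = 0.466). Itgav, the alpha subunit of the vitronectin receptors, had 186, 188, 177, 179.7 and 192 and 202, 202, 179 and 168 (−0.04 ± 0.05, 0.674). Ranges of the 2 coats overlapped for both subunits. Itga5, the fibronectin receptor subunit, differed by −0.05 ± 0.04 (0.522), Itgb5 by −0.02 ± 0.04 (0.821) and Itgb6 by 0.06 ± 0.09 (0.737). Itgb3, which pairs with Itgav, had 4.64, 9.09, 4.61, 9.15 and 5.73 per M on fibronectin and 11.8, 7.50, 8.69 and 7.23 on vitronectin, lower on fibronectin in 3 of 4 pairs (−0.33 ± 0.12, 0.108). Without fibronectin replicate 4 it passed (−0.47, limma adjusted p = 0.0234). Itgb8, Itga8 and Itga2b stayed below the filter, at or under 1.85 per M in every library of both coats. The cells' own fibronectin transcript, Fn1, ranged from 1666 to 2417 per M on fibronectin and from 1760 to 2712 on vitronectin (−0.10 ± 0.07, 0.458). Vtn was not in the table analysed here.

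Several receptors and ligands of laminin were lower on fibronectin. Of 16 other matrix receptors tested, 5 fell and 0 rose (median −0.10, against 0.01 over all genes). Over all genes tested 2.43% fell and 1.6% rose, and each list count below is to be read beside these shares. In lists this short a single call says little about the list. The members that fell were the collagen receptor subunit Itga2, the laminin receptor subunits Itga6 and Itgb4, which together anchor hemidesmosomes, and the syndecans Sdc1 and Sdc3. Sdc3 had 65.0, 73.6, 68.5, 51.1 and 40.9 per M on fibronectin and 86.0, 78.6, 63.6 and 48.0 on vitronectin (−0.24 ± 0.04, limma adjusted p = 0.00209), and Sdc1 differed by −0.21 ± 0.04 (0.00463). Both calls held without any 1 library, but that of Sdc1 ended without experiment 4 on both coats (0.0516) and both ended with the 8 paired libraries alone (0.0713 for Sdc3 and 0.107 for Sdc1). Itga6 had 276, 206, 247, 189 and 247 per M on fibronectin and 242, 305, 258 and 257 on vitronectin (−0.25 ± 0.07, 0.044), and Itgb4 (−0.26 ± 0.07) was the gene closest to the threshold. The calls of the 3 integrin subunits ended without fibronectin replicate 2, 3 or 5 or vitronectin replicate 3 or 4 for each, without vitronectin replicate 5 for Itga2 and Itgb4, without fibronectin replicate 4 for Itga6 and Itgb4, and without fibronectin replicate 1 for Itgb4. Without vitronectin replicate 4 their limma adjusted p were 0.0895 for Itga2, 0.177 for Itga6 and 0.142 for Itgb4, and after the length and GC correction that of Itgb4 was 0.103.

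Lama3 and Lamb3 encode an alpha and a beta chain of laminin, the basement membrane ligand of that integrin, and both fell. Lama3 had 21.9, 26.0, 22.5, 16.9 and 8.83 per M on fibronectin and 45.0, 29.9, 20.4 and 17.1 on vitronectin. Lamb3 had 144, 161, 150.0, 105 and 67.5 and 230.5, 192, 123 and 110.0. Levels differed between experiments on both coats, from high in experiment 2 to low in experiment 5, and the ranges overlapped, but fibronectin was lower in each of the 4 pairs for each chain. The differences were −0.58 ± 0.09 (limma adjusted p = 0.00112) and −0.43 ± 0.06 (0.000513), and both calls held without any 1 library. Lamb3 spans Hsd11b1 on the other strand, and the kit does not mark strand, but Hsd11b1 averaged only 1.51 and 2.18 per M. Other hemidesmosome members, on a list drawn up after these values were known, did not pass: Plec −0.22 ± 0.08, Dst −0.07 ± 0.09, Cd151 −0.10 ± 0.04 and Col17a1 −0.34 ± 0.11.

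Among 23 matrix glycoproteins made by the cells, 1 rose and 7 fell (median −0.13). Besides Lama3 and Lamb3, those that fell included Tnc, an anti-adhesive glycoprotein (−0.20 ± 0.05, limma adjusted p = 0.0339), the fibulin Fbln2 (−0.18 ± 0.04, 0.0196), and the latent TGF-beta binding proteins Ltbp2 (−0.26 ± 0.06, 0.0111) and Ltbp3 (−0.25 ± 0.06, 0.0204). Thbs1, thrombospondin, was the member that rose, with 1141, 1335, 1267, 1195 and 1048 per M on fibronectin and 1273, 1026, 921 and 634 on vitronectin (0.35 ± 0.08, 0.019). Its lowest value was that of vitronectin in experiment 5. Of 21 collagen chains and cross-linking enzymes, 1 rose, the basement membrane chain Col4a5 (22.5, 30.5, 25.8, 38.8 and 34.9 and 25.5, 18.8, 29.7 and 24.3 per M, 0.38 ± 0.06, 0.00281), and 1 fell, the lysyl oxidase Loxl3 (−0.45 ± 0.09, 0.00761). The calls of Col4a5 and Loxl3 held without any 1 library, and that of Loxl3 ended without experiment 4 on both coats (limma adjusted p = 0.0762). Those of Thbs1, Fbln2, Ltbp2, Ltbp3 and Tnc ended without vitronectin replicate 4 (limma adjusted p = 0.0669, 0.0909, 0.0632, 0.077 and 0.0606). Vitronectin replicate 5 also ended those of Thbs1, Ltbp3 and Tnc (0.117 for Tnc), fibronectin replicate 4 those of Thbs1 and Fbln2, fibronectin replicate 5 those of Thbs1 and Tnc, and fibronectin replicate 2 and vitronectin replicate 3 that of Tnc. After the length and GC correction Fbln2 had an adjusted p of 0.0573.

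Some genes of pericellular proteolysis were lower on fibronectin. Of 11 tested genes of the plasminogen system, 2 fell and 0 rose (median −0.08). Plaur, the urokinase receptor and a binding partner of vitronectin, had 104, 117, 96.4, 79.5 and 74.2 per M on fibronectin and 129.6, 108, 108 and 101 on vitronectin, lower on fibronectin in 4 of 4 pairs (−0.30 ± 0.05, limma adjusted p = 0.00209). Serpine2, a serpin that inhibits thrombin and urokinase, had 4.14, 4.49, 3.99, 7.08 and 10.0 and 5.63, 6.60, 11.6 and 17.6 (−0.58 ± 0.10, 0.00407). Both calls held without any 1 library, and that of Plaur ended with the 8 paired libraries alone (0.0748). Urokinase itself, Plau, was lower in 4 of 4 pairs without passing (−0.19 ± 0.07, 0.138). It passed without vitronectin replicate 2 (−0.28, limma adjusted p = 0.0188) and without experiment 2 on both coats (−0.25, 0.0327). Lrp1, a clearance receptor of protease complexes, differed by −0.39 ± 0.13 (0.0847), and reached an adjusted p of 0.0415 after the length and GC correction. Others did not pass: Plat 0.02 ± 0.12, Serpinb2 −0.23 ± 0.15, Serpinb5 0.12 ± 0.11, Anxa2 −0.07 ± 0.05, S100a10 −0.08 ± 0.05 and Plgrkt −0.01 ± 0.06. Plg was not in the table analysed here, and Serpinf2 was at or under 0.0786 per M.

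Of 19 metalloproteinases and inhibitors, 3 fell and 1 rose (median −0.07). The 3 that fell lie in 1 gene cluster on chromosome 9. They are the stromelysins Mmp3 and Mmp10 and the collagenase Mmp13. Mmp3 had 19.3, 20.0, 29.0, 26.7 and 29.4 per M on fibronectin and 22.2, 45.3, 54.9 and 79.4 on vitronectin (−0.84 ± 0.22, limma adjusted p = 0.0352). The vitronectin library of experiment 2 lay within the fibronectin range and that of experiment 5 was highest. Mmp10 had 4.50, 6.65, 6.24, 8.02 and 5.63 and 7.63, 9.09, 11.4 and 14.6 (−0.62 ± 0.16, 0.0343), and Mmp13 had 0.546, 1.88, 1.08, 1.85 and 1.28 and 2.18, 2.13, 2.10 and 3.89 (−0.55 ± 0.15, 0.0395). Mmp13 did not overlap between coats, and its highest value was again vitronectin in experiment 5. Without vitronectin replicate 5 the adjusted p were 0.14, 0.143 and 0.164. The 3 calls also ended without fibronectin replicate 1 or 5 or vitronectin replicate 3 or 4, those of Mmp3 and Mmp10 without fibronectin replicate 2, that of Mmp3 without fibronectin replicate 4 and that of Mmp13 without fibronectin replicate 3. The neighbouring genes Dcun1d5 (0.03) and Dync2h1 (−0.08) did not pass. Adamts1, which cleaves proteoglycans, was the member that rose (0.32 ± 0.08, 0.0251), a call that ended without fibronectin replicate 3, 4 or 5 or vitronectin replicate 4 or 5 (adjusted p up to 0.104).

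Stromelysin, collagenase and urokinase receptor genes are textbook targets of the transcription factor AP-1, whose consensus is TGA(C/G)TCA. The letters searched here were the looser TGANTCA, which allows any base in the middle. Each of their windows of 250 bases before the RefSeq start site (GRCm38.p6) held 1 such site, at 46 bases before the start in Mmp3, 63 in Mmp10, 35 in Mmp13 and 69 in Plaur. The Selp window held 1 as well, at 139 bases, and the Ecm1 window 1, at 64. The Selp match reads TGATTCA, so it has the looser letters and not the consensus. Of all 32851 windows of this length 6.75% held the motif in this looser form, on either strand. Among windows of tested genes 4.56% held it, among those of higher genes 5.03% and among those of lower genes 8.26%. Not every gene had a window, and these shares were not tested. The windows of Mmp3, Mmp10, Mmp13, Plaur and Selp are shown 5′ to 3′ on the gene's strand because these genes fell together, with the motif in capitals. Motif and genes were chosen after the values were known, and a match is a description of the letters. A part of AP-1 in the differences was not tested. Genes that rose held the motif too: the window of Irgm1 and 1 of the 5 windows of Ablim1. So did genes that did not pass, among them Anxa2, Serpinb2 and Serpinb5 of the plasminogen system, and Sele. The window of Serpine2, which fell, did not hold it.
Mmp3, chr9:7445572-7445821, plus strand: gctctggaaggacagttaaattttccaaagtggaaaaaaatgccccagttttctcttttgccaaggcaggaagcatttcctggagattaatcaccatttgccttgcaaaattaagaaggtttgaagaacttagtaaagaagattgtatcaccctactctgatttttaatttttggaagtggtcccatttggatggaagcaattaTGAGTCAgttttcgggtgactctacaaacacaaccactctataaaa
Mmp10, chr9:7502092-7502341, plus strand: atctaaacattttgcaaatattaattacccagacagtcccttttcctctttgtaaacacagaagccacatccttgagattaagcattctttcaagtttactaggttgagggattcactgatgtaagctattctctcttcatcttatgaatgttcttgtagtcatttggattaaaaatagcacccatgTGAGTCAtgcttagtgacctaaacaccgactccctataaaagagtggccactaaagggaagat
Mmp13, chr9:7272264-7272513, plus strand: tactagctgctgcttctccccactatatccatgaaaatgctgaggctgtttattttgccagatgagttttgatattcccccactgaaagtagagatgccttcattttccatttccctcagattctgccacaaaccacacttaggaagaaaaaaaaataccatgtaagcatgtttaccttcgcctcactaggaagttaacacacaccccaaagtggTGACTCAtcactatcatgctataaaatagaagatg
Plaur, chr7:24462233-24462482, plus strand: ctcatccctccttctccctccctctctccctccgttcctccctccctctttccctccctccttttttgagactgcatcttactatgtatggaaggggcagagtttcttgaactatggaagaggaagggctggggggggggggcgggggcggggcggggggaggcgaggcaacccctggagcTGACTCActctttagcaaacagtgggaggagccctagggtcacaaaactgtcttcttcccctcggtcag
Selp, chr1:164115014-164115263, plus strand: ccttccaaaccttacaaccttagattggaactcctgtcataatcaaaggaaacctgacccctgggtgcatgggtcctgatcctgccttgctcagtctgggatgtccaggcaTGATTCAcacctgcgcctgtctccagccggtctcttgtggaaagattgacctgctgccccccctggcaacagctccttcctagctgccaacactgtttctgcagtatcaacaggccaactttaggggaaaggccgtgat

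Fosl1, a subunit of AP-1, had 134, 128, 128, 100.2 and 91.6 per M on fibronectin and 133, 157, 153 and 135 on vitronectin (−0.35 ± 0.08, limma adjusted p = 0.013). Fibronectin was lower in 4 of 4 pairs, and the call ended without fibronectin replicate 4 or vitronectin replicate 4 or 5 (adjusted p up to 0.0707). It was the only 1 of 23 immediate early and stress genes that fell, and Asns, an amino acid response gene, rose (0.17 ± 0.04, 0.0217, and 0.0809 without vitronectin replicate 5 and also over the threshold without fibronectin replicate 5). Of 13 EGF family ligands and receptors 2 fell and 0 rose (median −0.14): Tgfa (−0.29 ± 0.06, 0.0168) and Hbegf (−0.25 ± 0.06, 0.0242), both ligands of the EGF receptor. Areg, another such ligand, did not pass (−0.40). The call of Tgfa ended without vitronectin replicate 4 or 5 (up to 0.0822), and that of Hbegf also without fibronectin replicate 4 or 5 (up to 0.102).

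Adhesion and contractility genes moved little, in both directions. Of 25 focal adhesion and integrin signalling genes 1 rose and 4 fell (median −0.01). Those that fell were the scaffold Pxn (−0.16 ± 0.04), the kinase Src (−0.15 ± 0.04), Parvb (−0.32 ± 0.06) and Tns4 (−0.36 ± 0.07). The docking protein Nedd9 rose (0.27 ± 0.06). Tns4, a tensin of carcinoma cells, had 106, 80.0, 82.7, 114 and 138 per M on fibronectin and 99.8, 99.3, 151 and 189.6 on vitronectin. Of 23 actin and contractility genes 2 rose, the calponin Cnn3 (0.11 ± 0.03) and the tropomyosin Tpm1 (0.17 ± 0.04), and 0 fell (median 0.04). Of 20 targets of YAP and TEAD, the mechanosensitive transcription factors, 3 rose and 0 fell (median 0.04): Ctgf (0.18 ± 0.05), Tgfb2 (0.35 ± 0.08) and the kinase Nuak2. Nuak2 had 18.6, 18.8, 28.5, 36.6 and 29.6 per M on fibronectin and 14.2, 20.4, 30.1 and 24.5 on vitronectin (0.34 ± 0.06, limma adjusted p = 0.00274). Of 14 SRF and MRTF targets 1 rose, Ctgf. The calls of Nuak2, Parvb and Tns4 held without any 1 library, but without experiment 4 on both coats those of Parvb (limma adjusted p = 0.0747) and Tns4 (0.0762) ended. All the others of this paragraph ended without vitronectin replicate 4: adjusted p were 0.16 for Pxn, 0.117 for Src, 0.075 for Nedd9, 0.168 for Cnn3, 0.18 for Ctgf, 0.0782 for Tgfb2 and 0.0953 for Tpm1. Without fibronectin replicate 4 those of Pxn, Src, Nedd9, Cnn3, Tpm1 and Ctgf ended, without fibronectin replicate 5 those of Src, Cnn3, Tpm1 and Ctgf, and that of Cnn3 without any 1 of the 9. Vitronectin replicate 3 ended those of Pxn, Src and Ctgf, and vitronectin replicate 5 those of Src, Tpm1 and Tgfb2. Fibronectin replicate 1 ended those of Pxn and Ctgf, fibronectin replicate 2 that of Tpm1 and fibronectin replicate 3 that of Ctgf. After the length and GC correction Pxn (0.0923) and Src (0.181) did not pass.

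Several feedback and target genes of TGF-beta and BMP signalling were lower on fibronectin. Of 17 TGF-beta ligands, receptors and targets, 4 fell and 1, the ligand Tgfb2, rose (median 0.03). The 4 were the inhibitory Smad6 and Smad7 and the inhibitors of differentiation Id2 and Id3, all of which BMP signals induce. Id3 had 153, 149.8, 136, 97.7 and 86.9 per M on fibronectin and 184, 161, 147 and 125 on vitronectin (−0.37 ± 0.06, limma adjusted p = 0.00372). Smad6 had 7.48, 8.90, 6.96, 5.96 and 4.37 and 13.2, 9.83, 9.91 and 5.22 (−0.43 ± 0.08, 0.00596). Id2 had 69.8, 72.1, 50.01, 24.8 and 32.2 and 95.8, 73.2, 46.9 and 49.7 (−0.50 ± 0.14, 0.0478), and Smad7 differed by −0.27 ± 0.06 (0.0136). Levels of Id3, Smad6 and Id2 were lower in experiments 4 and 5 than in experiment 2 on both coats, and ranges overlapped, but in 4 of 4 pairs fibronectin was lower. On a list of the BMP pathway drawn up after the values were known, 5 of 14 fell and 0 rose, the fifth being the ligand Bmp7 (32.5, 21.8, 29.8, 33.2 and 38.1 and 33.4, 37.7, 45.1 and 45.6 per M, −0.40 ± 0.07, 0.00473). Id1 (−0.41 ± 0.15, 0.107) and Id4 (−0.38 ± 0.11, 0.0588) did not pass, and the receptors Bmpr1a (0.08) and Bmpr2 (0.04) did not either. The calls of Id3, Smad6 and Bmp7 held without any 1 library. None of the 3 genes is among the 35, and without experiment 4 on both coats those of Id3 (limma adjusted p = 0.0700) and Smad6 (0.102) ended. Those of Smad7 and Id2 ended without fibronectin replicate 4 (adjusted p = 0.0619 and 0.185) or vitronectin replicate 4 or 5, that of Id2 also without fibronectin replicate 2, 3 or 5 or vitronectin replicate 3, and that of Tgfb2 without vitronectin replicate 4 (0.0782) or 5.

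A few genes of the interferon response were higher on fibronectin. Of 23 tested, 2 rose and 0 fell, with a median of 0.14 against 0.01 over all genes, of which 1.6% rose. Igtp and Irgm1 encode immunity-related GTPases, which act on the vacuoles of intracellular pathogens. Irgm1 had 22.6, 28.3, 21.0, 37.4 and 28.9 per M on fibronectin and 24.4, 18.5, 26.2 and 24.0 on vitronectin (0.28 ± 0.06, limma adjusted p = 0.0181). Igtp was low, with 1.89, 2.28, 2.09, 3.98 and 2.61 and 1.91, 0.860, 1.72 and 2.08 (0.47 ± 0.12, 0.035). Relatives outside that list rose too: Irgm2 (0.54 ± 0.13), Tgtp1 (0.48 ± 0.11), Tgtp2 (0.50 ± 0.11) and Gvin1 (69.1, 64.3, 65.9, 96.6 and 88.7 and 57.0, 61.7, 67.8 and 57.6 per M, 0.33 ± 0.06, 0.00668). On a list of these and the guanylate-binding proteins drawn up after the values were known, 6 of 11 rose and 0 fell, while Gbp2 (0.35 ± 0.10), Gbp3 (0.39 ± 0.12), Gbp4 (0.11 ± 0.13), Gbp7 (0.27 ± 0.11) and Gbp9 (0.19 ± 0.11) did not pass. Tgtp1 and Tgtp2 are near-identical copies, and the annotated spans of Igtp and Irgm2 overlap on chromosome 11, so how their reads were divided is uncertain. The call of Gvin1 held without any 1 library, but Gvin1 is not among the 35 genes. Those of Igtp, Irgm1, Irgm2, Tgtp1 and Tgtp2 ended without fibronectin replicate 4 or vitronectin replicate 4 (adjusted p up to 0.14, 0.0812, 0.116, 0.0895 and 0.0806), that of Igtp also without fibronectin replicate 3 or 5 or vitronectin replicate 3, and that of Irgm2 without fibronectin replicate 3 or vitronectin replicate 2 or 3.

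Interferons act on such genes through elements with a repeated GAAA. The letters GAAA, any 2 bases and GAAA again stood once in the 250 bases before the start of Igtp (34 bases before it), Irgm2 (64), Tgtp1 (77) and Tgtp2 (70) and at 2 overlapping places in Irgm1 (30 and 24), and in 2.98% of all 32851 windows on either strand. The windows of Igtp, Irgm2 and Irgm1 are shown because these GTPase genes rose together, 5′ to 3′ on the gene's strand in GRCm38.p6 as given by RefSeq, with the motif in capitals. The window of Mmp13, which fell, held these letters as well, and the TGANTCA match in the Irgm1 window is left in lower case.
Igtp, chr11:58199306-58199555, plus strand: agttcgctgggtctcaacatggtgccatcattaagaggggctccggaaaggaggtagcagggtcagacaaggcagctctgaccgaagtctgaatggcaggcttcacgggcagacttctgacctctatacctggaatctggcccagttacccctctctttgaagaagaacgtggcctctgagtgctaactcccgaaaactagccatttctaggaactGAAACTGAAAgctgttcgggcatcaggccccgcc
Irgm2, chr11:58214727-58214976, plus strand: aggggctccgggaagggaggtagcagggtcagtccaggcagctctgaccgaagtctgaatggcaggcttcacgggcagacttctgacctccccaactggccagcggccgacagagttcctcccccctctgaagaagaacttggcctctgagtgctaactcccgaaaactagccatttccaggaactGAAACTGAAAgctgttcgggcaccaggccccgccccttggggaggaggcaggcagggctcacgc
Irgm1, chr11:48871421-48871670, minus strand: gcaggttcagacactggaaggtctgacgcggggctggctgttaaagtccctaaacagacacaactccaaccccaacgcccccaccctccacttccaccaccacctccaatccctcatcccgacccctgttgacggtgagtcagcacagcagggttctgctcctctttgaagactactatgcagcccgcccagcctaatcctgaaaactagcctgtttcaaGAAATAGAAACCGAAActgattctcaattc

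Other fixed lists held few or no calls, beside 1.6% higher and 2.43% lower over all genes tested. Of 23 cholesterol synthesis genes (median 0.08), 16 fatty acid synthesis genes (0.07) and 24 ribosomal protein genes (−0.01), 0 passed in either direction by limma with all libraries in the fit. The desaturase gene Scd2 (0.24 ± 0.07, limma adjusted p = 0.0645) passed without fibronectin replicate 1 (0.0390) or 2 (0.0403), vitronectin replicate 2 (0.0437) or experiment 2 on both coats (0.0352). Fads2, another desaturase gene, passed without fibronectin replicate 1 (0.0483). The ribosomal genes Rpl11 (0.0172) and Rpl18 (0.0181) passed as lower without fibronectin replicate 2. After the length and GC correction 1 cholesterol gene and 1 fatty acid gene, Fads2 (0.0178), passed as higher. Of 26 cell cycle genes 2 fell, the cyclin Ccnd1 (−0.16 ± 0.04, limma adjusted p = 0.0224) and the cyclin-dependent kinase inhibitor Cdkn1a (−0.46 ± 0.10, 0.0111), and 0 rose (median 0.00). Of 19 epithelial junction and keratin genes 1 rose, the E-cadherin gene Cdh1 (0.19 ± 0.05, 0.0232), and of 7 EMT genes 1 fell, Twist1 (−0.33 ± 0.08, 0.0332). The glycolytic regulator Pfkfb3 rose, alone among 23 genes of glycolysis and hypoxia (0.27 ± 0.07, 0.0254). Of 16 cytokines and chemokines 2 fell, the growth factor Csf3 (−0.27 ± 0.06, 0.0204) and the NF-kB inhibitor Nfkbia (−0.25 ± 0.06, 0.0244). Each call of this paragraph ended without at least 1 library. Vitronectin replicate 5 ended those of Cdh1, Twist1, Pfkfb3, Csf3, Nfkbia and Cdkn1a, vitronectin replicate 4 those of Cdh1, Twist1, Csf3, Ccnd1 and Cdkn1a, and fibronectin replicate 4 those of Cdh1, Twist1, Csf3, Nfkbia and Ccnd1. Fibronectin replicate 5 ended those of Cdh1, Twist1, Pfkfb3 and Nfkbia, fibronectin replicate 3 those of Twist1 and Pfkfb3, fibronectin replicate 1 and vitronectin replicate 3 that of Twist1, and vitronectin replicate 2 that of Pfkfb3. The largest adjusted p were 0.0904 for Cdh1, 0.108 for Twist1, 0.0809 for Pfkfb3, 0.0861 for Csf3, 0.102 for Nfkbia, 0.107 for Ccnd1 and 0.0536 for Cdkn1a. Twist1 had 0.109 after the length and GC correction.

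**Figure D3:**
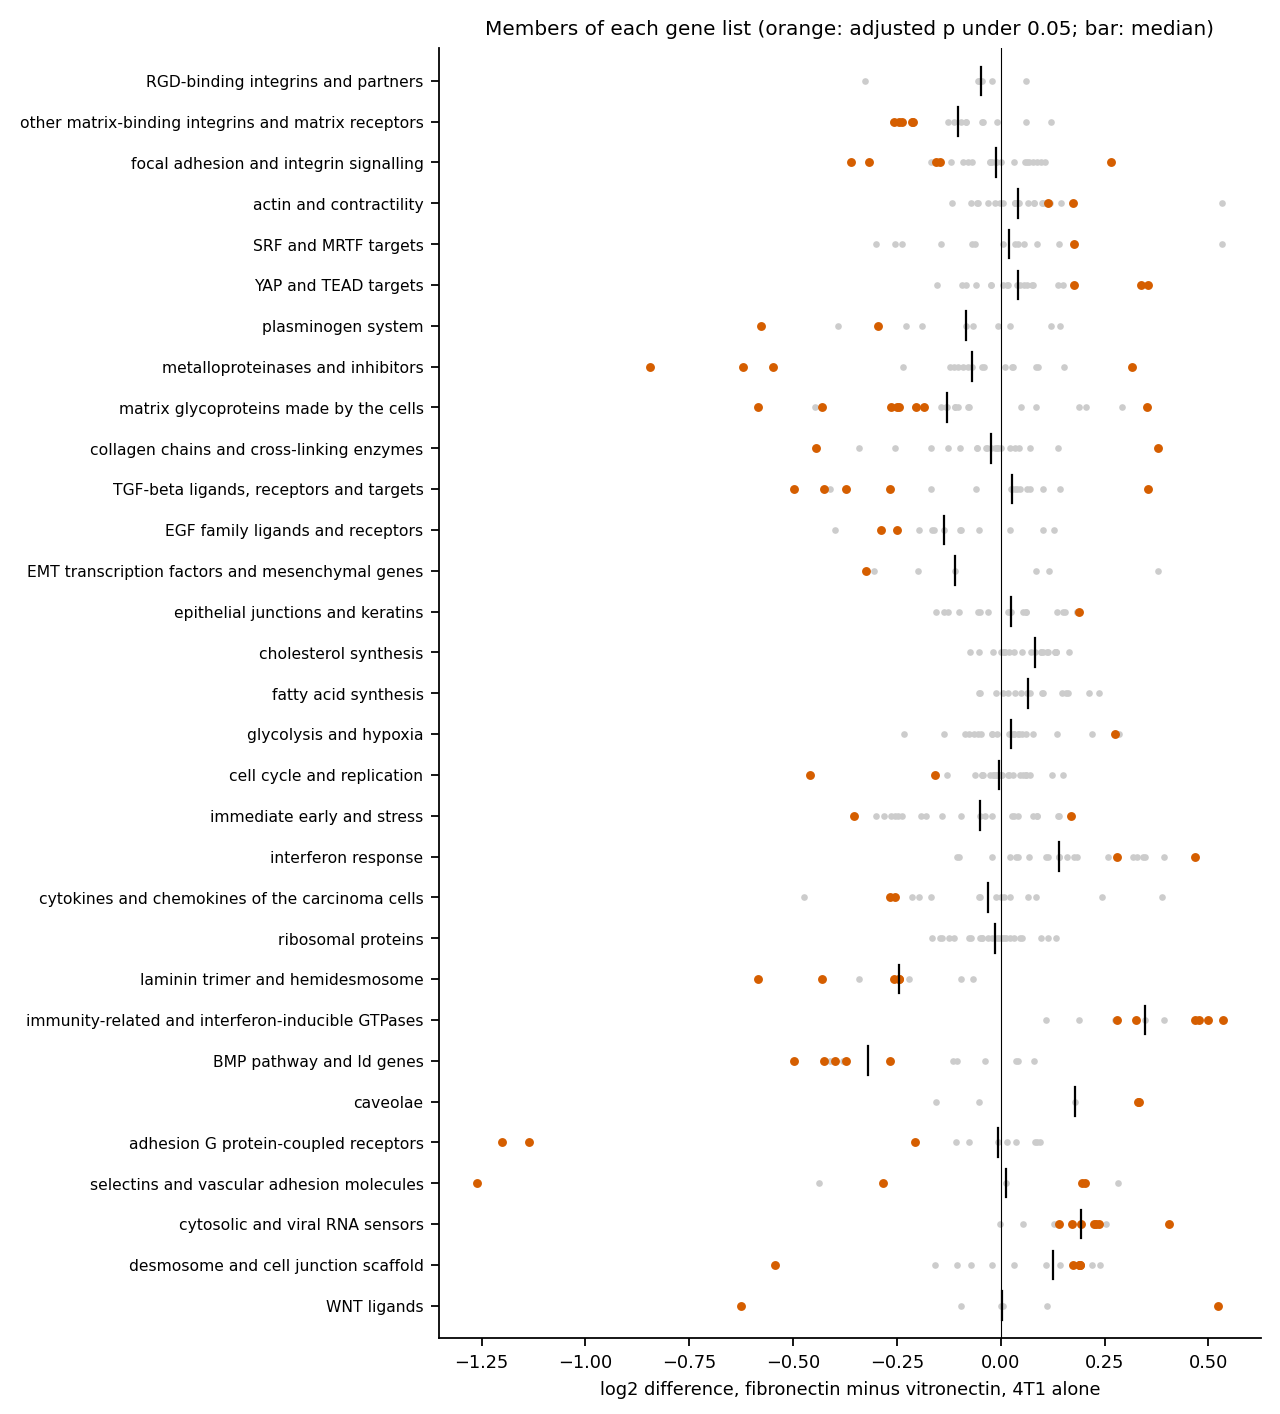
Log2 difference (x axis, fibronectin minus vitronectin) of every tested member of 31 gene lists (rows); orange points passed, grey points did not, and the black bar is the list's median. The RGD integrins stand close to 0 with no orange point, whereas orange points of the proteinases, matrix glycoproteins and BMP genes lie mostly to the left and those of the GTPases and RNA sensors to the right; the last 9 lists were drawn up after the values were known.

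For 23 of the 24 lower and 10 of the 11 higher genes the fitted values of the 2 coats lay on opposite sides of uncoated plastic. The comparisons share the uncoated libraries, so their values are given side by side without a test of their likeness. Fibronectin against uncoated plastic passed for 266 of 13664 genes (1.95%; 109 higher, 157 lower), and vitronectin against uncoated plastic for 7 (0.0512%; 6 higher, 1 lower). The 6 genes higher on vitronectin were Selp, Adgrg3, Adgrg1, Wnt11, Smad6 and Ecm1. Selp differed from uncoated plastic by 1.02 ± 0.15 on vitronectin (limma adjusted p = 0.0116) and by −0.24 ± 0.14 on fibronectin (0.368), with 1.39, 3.91, 2.16, 1.82 and 1.20 per M on uncoated plastic. Adgrg3 differed by 0.88 ± 0.13 (0.0116) and −0.32 ± 0.12 (0.161). Wnt11 differed by 0.53 ± 0.09 (0.0205) and −0.09 ± 0.08 (0.566), and Smad6 by 0.49 ± 0.08 (0.0196) and 0.06 ± 0.07 (0.692). Ecm1 passed on both sides, at 0.44 ± 0.08 on vitronectin (0.0445) and −0.29 ± 0.07 on fibronectin (0.0495). The gene that was lower on vitronectin was the lipid droplet coat gene Plin2 (−0.22, 0.0196). Without vitronectin replicate 4 or uncoated replicate 2 or 5 none of these 7 passed, without vitronectin replicate 3, vitronectin replicate 5 or uncoated replicate 3 there were 2, 3 and 4, and without uncoated replicate 4 there were 26.

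For Lamb3, Lama3, Serpine2, Mmp3 and Cdh17 the fitted value was farther from uncoated plastic on fibronectin than on vitronectin. Lamb3 differed from uncoated plastic by −0.34 ± 0.05 on fibronectin (limma adjusted p = 0.00812) and by 0.10 ± 0.06 on vitronectin (0.644). Lama3 differed by −0.52 ± 0.08 (0.00812) and 0.07 ± 0.09 (0.857). Serpine2 had −0.52 ± 0.09 (0.0124) and 0.06 ± 0.10 (0.892), and Mmp3 −0.80 ± 0.20 (0.046) and 0.05 ± 0.22 (0.968). Cdh17, an atypical cadherin, had 4.05, 4.30, 3.66, 4.80 and 3.81 per M on fibronectin, 5.58, 5.33, 8.46 and 6.56 on vitronectin and 7.42, 5.70, 5.07, 9.76 and 6.76 on uncoated plastic. Its differences were −0.61 ± 0.08 (0.0007) and −0.06 ± 0.08 (0.86). Among higher genes, Col4a5 had 0.33 ± 0.06 on fibronectin (0.0124) and −0.05 ± 0.06 on vitronectin (0.85). Of the 35 genes, 21 passed for fibronectin against uncoated plastic and 5 for vitronectin. Without 1 library the first comparison as a whole gave between 8 genes, without fibronectin or uncoated replicate 1, and 550, without fibronectin replicate 2. It gave 10 and 39 without fibronectin replicate 4 or 5 and 125, 169 and 45 without uncoated replicate 3, 4 or 5.

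**Figure D4:**
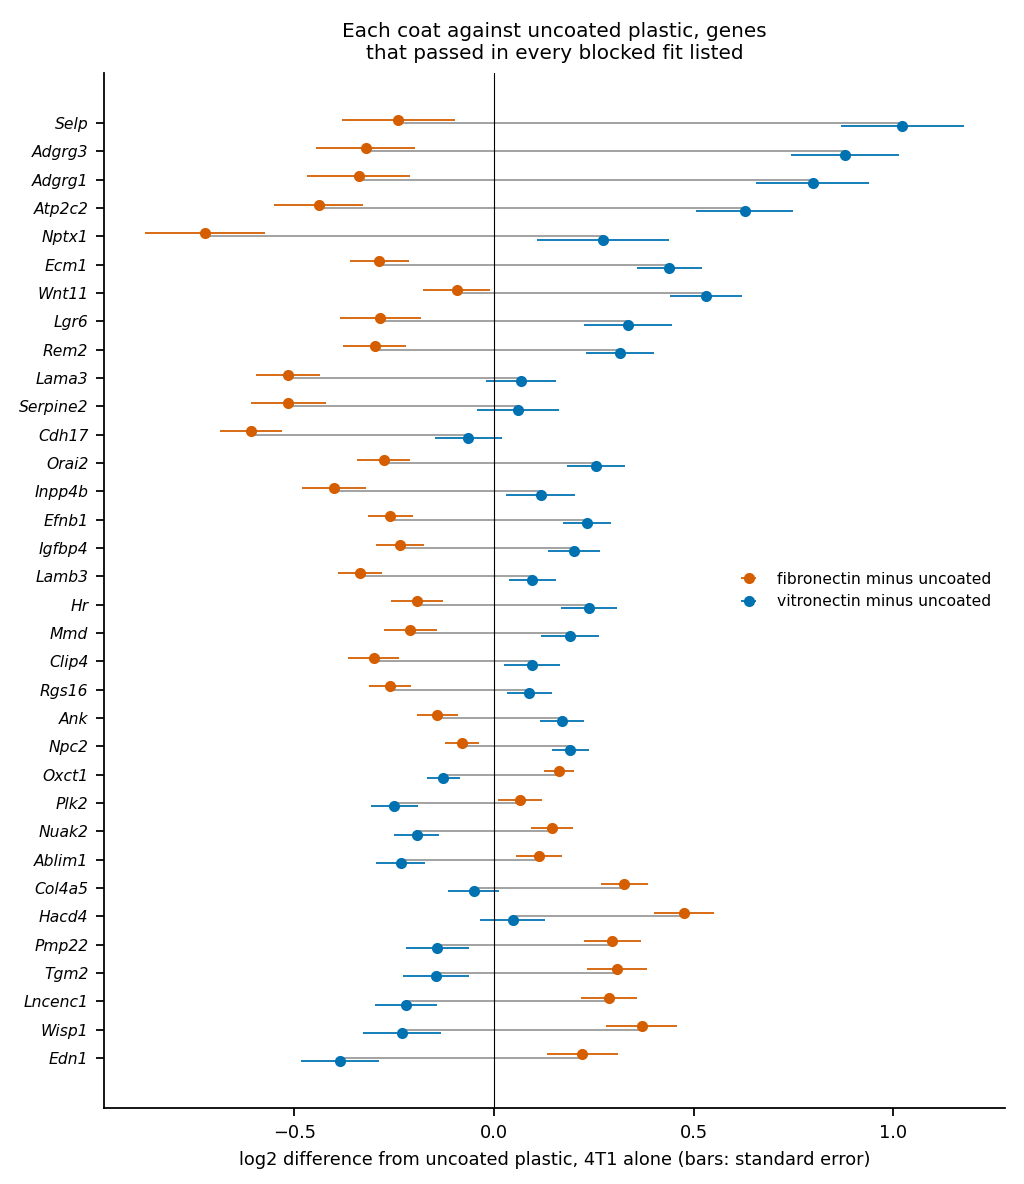
Log2 difference from uncoated plastic (x axis, bars are standard errors) of genes that passed in every blocked fit listed (rows) on fibronectin (orange) and on vitronectin (blue), in 4T1 cells alone. For each lower gene shown except Cdh17 fibronectin lies left of 0 and vitronectin right of it, and for each higher gene except Hacd4 the order is the reverse. Both coats are measured against the same uncoated libraries, and the genes were chosen for their difference between the coats.

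The same 2 coats were compared in separate wells that also held T cells. Those libraries mix carcinoma and T cell RNA, and in such bulk RNA fewer cells of a kind and less RNA per cell cannot be told apart. By limma 0 of 13663 genes (0%) passed there, with 575 at an unadjusted p under 0.05 and a smallest adjusted p of 0.107, and the co-cultures hold 3 pairs instead of 4. By edgeR also 0 passed, and by DESeq2 16. The difference between the 2 contrasts passed for 0 genes (0%), with 757 at an unadjusted p under 0.05 by limma, and by edgeR and DESeq2 also 0 passed. Of the 550 genes called in 4T1 alone, 467 (84.9%) had the same sign in co-culture, against 7748 of 13663 (56.7%) over all genes. All 35 genes that passed in every blocked fit listed had the same sign, 34 of them in 3 of 3 pairs, and 29 had an unadjusted p under 0.05. Selp had 2.34, 3.16, 1.93 and 2.34 per M in fibronectin co-cultures (experiments 1, 2, 4 and 5) and 7.55, 6.57 and 5.34 in vitronectin co-cultures (experiments 2, 4 and 5). No library overlapped, and the difference was −1.09 ± 0.20 (limma unadjusted p = 0.000115). Adgrg3 had 29.3, 21.4, 12.1 and 15.6 and 52.4, 33.3 and 35.5 (−1.18 ± 0.17). Lama3 had 21.0, 24.4, 13.9 and 12.1 and 39.1, 19.6 and 18.7, lower on fibronectin in each pair (−0.58 ± 0.12). Among higher genes Tgm2 differed by 0.58 ± 0.11, Wisp1 by 0.59 ± 0.15 and Pmp22 by 0.54 ± 0.09, all higher in 3 of 3 pairs. Gm6139, a pseudogene, and the histone gene H2afj, called lower in 4T1 alone (−0.80 and −0.68), had the opposite sign in co-culture (0.36 and 0.25). The call of H2afj ended without experiment 4 (limma adjusted p = 0.0762) or 5 (0.0563) on both coats. The call of Gm6139 ended without vitronectin replicate 5 (adjusted p = 0.173), vitronectin replicate 4 or fibronectin replicate 1, 3, 4 or 5.

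**Figure D5:**
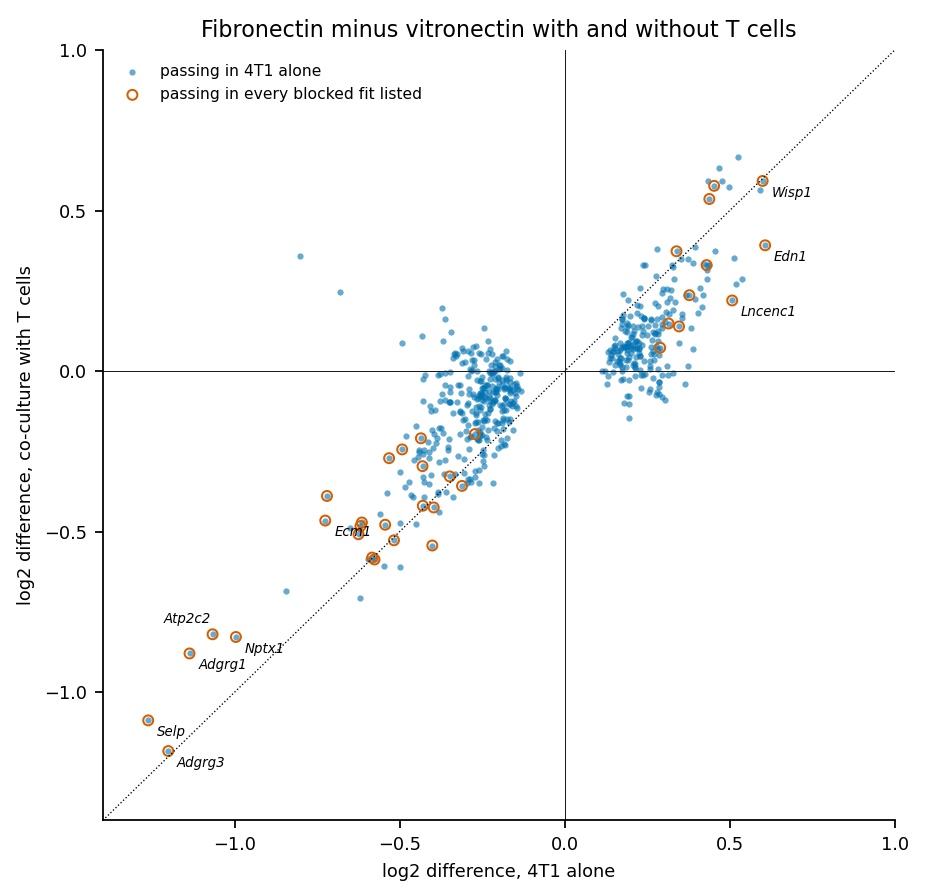
Log2 difference (fibronectin minus vitronectin) in 4T1 cells alone (x axis) and in co-culture with T cells (y axis) of the 550 genes called in 4T1 alone; orange rings mark the 35 genes that passed in every blocked fit listed and the dotted line marks equal differences. All 35 rings lie at lower left or upper right, on the same side of 0 on both axes; the genes were chosen on the x axis values.

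Pairs differed in how differences ran with gene structure. Over 9562 genes of 10 per M or more, Spearman's rho of the pair difference with GC content was −0.30 in experiment 2, 0.18 in experiment 3, −0.41 in experiment 4 and −0.38 in experiment 5, and with transcript length −0.01, −0.16, 0.15 and 0.56. Genes are not independent replicates, and no p is given. Higher genes had a median transcript of 3655 bases and 47.02% GC, lower genes 2700 bases and 54.65%, and all tested 2976 bases and 49.48%. In experiment 5 the libraries also carry different tags in the labels, R2 on fibronectin and R3 on vitronectin, whereas in the other pairs the tag is shared. In co-culture rho with GC content was 0.17, 0.25 and 0.35 in experiments 2, 4 and 5, opposite in sign to the fitted difference in 4T1 alone (−0.39). After a correction for length and GC content 702 genes passed, 426 of the 550 among them. The part of gene structure in the remaining calls was not tested.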

How the data were processed

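RNA of 40 libraries (TruSeq RNA v2, single-end, 75 bases, per the labels' protocols) was analysed from 1 deposited table. The submitters' processing notes name STAR 2.6, featureCounts, edgeR 3.31.7 and the build mm10. The deposited values are a normalised signal, read counts scaled by a factor per library. All values above 0 (100%) came out as whole reads within 0.01, so depth could be recovered. Of 21349 lines 21348 genes were kept.

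Genes with 1 per M or more in at least 4 libraries were tested with limma 3.58.1 (trend, R 4.3.3) on log2(value + 1), with substrate and experiment as terms over the 22 libraries of 4T1 alone and Benjamini-Hochberg adjustment over all genes tested. The co-cultures (18 libraries) were fitted likewise. The labels call the numbers separate experiments, and same-numbered libraries deviated together (r from 0.34 to 0.77 over 4 pairs, against −0.69 to 0.24 over 16 other pairs). None of the 16 pairs of libraries on the same coat agreed within sampling noise. Recovered reads were tested with edgeR 4.0.16 and DESeq2 1.42.0 as alternatives. The fits were also run on simulated counts that held no difference between experiments, so that run cannot show how well the block works. Its outcome is not given here.

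Named genes were the 15 with the largest log2 difference in each direction among those that passed and moved the same way in all 4 pairs, the RGD integrins and the plasminogen system whatever their values, and passing members of the other lists. The set of 35 genes, members of added lists and neighbours fall partly outside that rule and were named after their values were seen. Some genes that the rule names are not reported here. Comparison, members and lists were chosen with earlier results of these data known, and 9 lists were added after the values were seen.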

Additional observations from a re-analysis of the deposited data

Results flagged for a closer look

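Among 204 groups of 4 or 5 libraries of named genes, 5 had 1 library far from the others, and chance alone gives about 1 in 20 groups. Irgm2 had 6.02 per M in fibronectin replicate 4, against 2.57 to 3.52 in the other fibronectin libraries. Lck, a kinase of T cells, had 2.53 per M in fibronectin replicate 2, against 1.57 to 1.80. Itgb6, an RGD-binding integrin subunit, had 9.54 per M in vitronectin replicate 2, against 5.70 to 5.79. Tpm1 had 755.8 per M in vitronectin replicate 5, against 932.8 to 941.3, and Mmp13 had 3.89 per M in the same library, against 2.10 to 2.18.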

How the results depend on the processing

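The count of genes differing between the coats depended on the fit, and the cause was not tested except where fewer samples or another filter is the alternative itself. Against 550 genes, a fit with no replicate block called 1, the 9 libraries alone 65, the 8 paired libraries alone 65, all 40 libraries 29, and no filter on low values 309. Leaving out experiment 2, 4 or 5 gave 857, 58 and 168, and leaving out 1 library gave 132 (vitronectin replicate 4) to 830 (vitronectin replicate 2). Without fibronectin replicate 4 or 5 or vitronectin replicate 5 there were 170, 274 and 252. Other scalings, pseudocounts, edgeR (546), DESeq2 (796) and the length and GC correction (702) stayed within 1.5 times, and no call changed sign in any alternative. In co-culture DESeq2 called 16 against 0. Fibronectin against uncoated plastic moved from 266 to 0 with no replicate block, 87 with no filter, 587 by DESeq2, and 8 to 550 without 1 library. Vitronectin against uncoated plastic moved from 7 to 0 with no replicate block, 4 at a pseudocount of 0.1, 18 by edgeR, 33 by DESeq2, and 0 to 26 without 1 library. Sign changes occurred only in genes that did not pass. Plat had −0.0857 with no replicate block, −0.00628 over all 40 libraries, −0.0673 and −0.0526 without experiment 2 or 3, −0.0132 after the length and GC correction, and −0.0732 to 0.146 without 1 library. Plgrkt had 0.0114 and 0.0431 without experiment 2 or 5 and −0.0718 to 0.0393 without 1 library. Pdgfra had 0.0304 over 9 and over 8 libraries, 0.0126 over all 40, 0.0498 without experiment 5, and −0.0588 to 0.0540 without 1 library. Lck had −0.0222 over all 40 libraries and −0.0037 and −0.0141 without experiment 2 or 3. Itgb6 had −0.0361 without experiment 4 and −0.0061 to 0.114 without 1 library. Itgb5 had 0.0264 after the length and GC correction and −0.0599 to 0.0022 without 1 library. S100a10 had 0.000739 without experiment 5.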

Other observations

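Sensors of viral RNA and other genes of the antiviral response made a list chosen after the values were seen. On it 7 of 11 rose on fibronectin and 0 fell (median 0.19), and after the length and GC correction 4 of 11 rose. Those that rose were Ddx58, Tlr3, Eif2ak2, Trim25, Znfx1, Parp9 and Dtx3l, not all of them sensors. The cytosolic sensors Ifih1 and Dhx58 did not pass, and neither did Mavs and Zc3hav1. Tlr3, an endosomal sensor of double-stranded RNA, differed by 0.40 ± 0.07 (limma adjusted p = 0.0042), a call that held without any 1 library, though Tlr3 is not among the 35 genes that passed in every blocked fit listed. The lists of caveola genes and WNT ligands were drawn up after the values were known too. Of 5 tested caveola genes, which shape membrane pits, 2 rose: the coat protein gene Cav1 (0.33 ± 0.06, 0.00513) and Cavin2 (0.33 ± 0.07, 0.0119, and 0.057 without vitronectin replicate 4). Cav2, Cavin1 and Cavin3 did not pass, and the lowest difference on that list was −0.16. Of 6 WNT ligands Wnt9a rose (0.52 ± 0.10, 0.00709, and 0.0515 without vitronectin replicate 4) while Wnt11 fell.

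Neighbours of the leading genes were read from the annotation. Adgrg1 and Adgrg3 lie 3.48 kb apart, and the nearby genes Ccdc102a (−0.20) and Kifc3 (−0.17), both within 100 kb, did not pass. Sele, the E-selectin gene 57.6 kb from Selp, had a difference of −0.44 (limma adjusted p = 0.0568).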
